A study of Mus musculus with 2 samples.

Results

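The trefoil peptide genes Tff1, Tff2 and Tff3 and the gastrokine genes Gkn1, Gkn2 and Gkn3 encode small proteins secreted with stomach and gut mucus. They were taken by symbol from gene tables that list 69691 features, among them 21461 nuclear protein-coding genes, and all 6 were found. The tables come from total RNA of the whole stomachs of 2 newborn B6NCrl mice, 1 library per animal. Per the labels, both pups were taken at postnatal day 0 and were born to dam 1, their sex was not collected, and neither received a treatment that the labels name. The labels describe a stomach from each pup but give both libraries the same donor identifier, and they were treated as separate animals from the descriptions. The pups form 1 group, so the study holds no contrast and no test, and the spread between the libraries is the only error over animals. Pups are numbered as the labels number them, and every ratio is pup 1 over pup 2.

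Trefoil peptides are short, compact proteins with the cysteine-rich trefoil fold, which resists digestion. They are packed with mucins in secretory granules and are known for a part in the repair of damaged epithelium. In the adult stomach Tff1 belongs to the surface mucous cells, which also make the mucin Muc5ac, and Tff2 to the mucous neck cells, which make Muc6. Tff3 is known mainly from intestinal goblet cells, which make Muc2. Gastrokines carry a BRICHOS domain, a fold also found in the surfactant protein Sftpc and the Itm2 membrane proteins. Gkn1 and Gkn2 are products of surface mucous cells, and human GKN2 is known to form a disulfide-linked dimer with human TFF1. Gkn3 is the third mouse gastrokine, and its human counterpart is mostly a pseudogene.

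Tff1 was among the most abundant messenger RNAs of the newborn stomach, and it stood 1427 times above Tff3, the lowest of the 6 genes, in pup 1 and 1837 times in pup 2. Levels are given in TPM, the deposited measure of transcript abundance, which is scaled for transcript length and library total. Tff1 measured 12874 TPM in pup 1 and 13022 TPM in pup 2, a mean of 12948 ± 104 (SD, n = 2). It ranked 3 among protein-coding genes in either pup. Its level depends on the transcript length used. With the 703 bases of 1 of its 2 GENCODE M21 transcripts in place of the deposited 478, and counts unchanged, its mean was 8125 TPM. Its rank was then 6 in either pup, with the other genes kept at their deposited levels. Ratios of Tff1 over other genes change with its length, and Tff1 over Tff3 became 896 in pup 1 and 1152 in pup 2. The median protein-coding gene stood at 3.48 TPM in pup 1 and 3.63 TPM in pup 2.

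Gkn2 measured 5460 TPM in pup 1 and 5341 TPM in pup 2, a mean of 5400 ± 84.3 (SD, n = 2), and ranked 9 in both. Gkn1 measured 2884 TPM in pup 1 and 2809 TPM in pup 2, a mean of 2846 ± 53.2 (SD, n = 2), and ranked 18 in pup 1 and 19 in pup 2. These 3 products ascribed to surface mucous cells held the top of the order. Tff2, the mucous neck cell peptide with a pair of trefoil domains, measured 814 TPM in pup 1 and 743 TPM in pup 2, a mean of 779 ± 50.6 (SD, n = 2). It ranked 141 in pup 1 and 155 in pup 2. Gkn3 measured 92.8 TPM in pup 1 and 63.2 TPM in pup 2, a mean of 78.0 ± 20.9 (SD, n = 2). Tff3, the peptide of intestinal goblet cells, was the lowest, with 9.02 TPM in pup 1 and 7.09 TPM in pup 2, a mean of 8.06 ± 1.36 (SD, n = 2). All 6 genes reached 1 TPM in both pups, as did 61.2% of protein-coding genes.

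**Figure D1:**
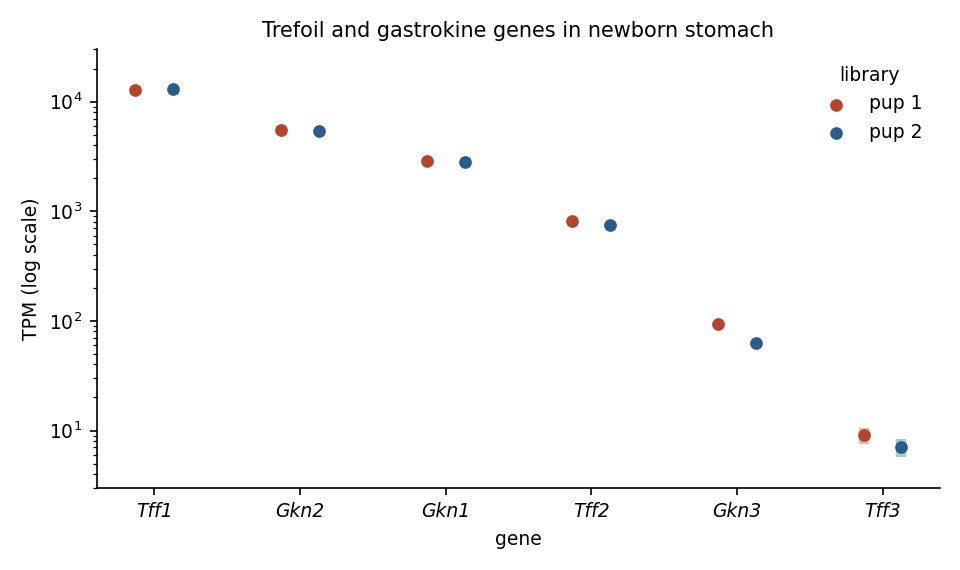
TPM of the 6 genes (log axis) in pup 1 (red) and pup 2 (blue), with 1 point per library; shaded bars span the deposited 95% credibility interval and are hidden by the points where narrow. The order Tff1, Gkn2, Gkn1, Tff2, Gkn3, Tff3 was the same in both pups. The points of the pups stand visibly apart for Gkn3 and Tff3, but the intervals of Tff3 overlap.

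The order of the 6 levels was the same in both pups. Tff1 stood 2.36 times above Gkn2 in pup 1 and 2.44 times in pup 2, and Gkn2 stood 1.89 times above Gkn1 in pup 1 and 1.90 times in pup 2. Gkn1 exceeded Tff2 by 3.54-fold in pup 1 and 3.78-fold in pup 2. The lower steps were wider and less alike between pups. Tff2 exceeded Gkn3 by 8.78-fold in pup 1 and 11.7-fold in pup 2, and Gkn3 exceeded Tff3 by 10.3-fold in pup 1 and 8.92-fold in pup 2. No neighbours in this order had overlapping 95% credibility intervals within a pup.

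Within the trefoil family nearly all transcripts were Tff1, which made up 94.0% of the summed TPM in pup 1 and 94.6% in pup 2. The gastrokines were less uneven, with Gkn2 at 64.7% of their sum in pup 1 and 65.0% in pup 2. The trefoil genes summed to 13698 TPM in pup 1 and 13772 TPM in pup 2, and the gastrokine genes to 8437 TPM in pup 1 and 8213 TPM in pup 2. Together the 6 genes held 2.21% of all TPM in pup 1 and 2.20% in pup 2, a mean of 2.21 ± 0.0106% (SD, n = 2). Their share of the expected counts, which are reads and favour long transcripts, was 0.986% in pup 1 and 0.963% in pup 2. TPM favours these short transcripts, whose lengths in the deposited tables run from 478 bases for Tff1 to 1220 bases for Gkn1.

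The reads behind the levels differed as widely. The library of pup 1 held 51524479 expected counts and that of pup 2 held 49983574, so that 3 counts, the most that a count of 0 allows, equal a CPM of 0.0582 in pup 1 and 0.0600 in pup 2. Tff1 rested on 201790 counts in pup 1 and 196119 in pup 2. Tff3 rested on 147 counts in pup 1 and 111 in pup 2, and its 95% credibility interval ran from 7.56 to 10.4 TPM in pup 1 and from 5.79 to 8.39 TPM in pup 2. The deposited intervals are centred on a posterior mean that lies slightly below the TPM, so the TPM of Tff1, Gkn1 and Gkn2 lay above the upper end of their own intervals in both pups.

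The 6 genes lie in 2 clusters of 3 on build mm10. The trefoil cluster covers 40.0 kb of chromosome 17, with all 3 genes on the minus strand. Tff3 (ENSMUSG00000024029.4, 31125306 to 31129646) has 3 exons and 81 codons, Tff2 (ENSMUSG00000024028.7, 31141049 to 31144282) has 4 exons and 129 codons, and Tff1 (ENSMUSG00000024032.6, 31161395 to 31165277) has 3 exons and 87 codons. The lowest and the highest of the 6 levels thus lay at opposite ends of 1 cluster, with Tff2 between them.

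The gastrokine cluster covers 43.3 kb of chromosome 6. Gkn1 (ENSMUSG00000030050.3, 87345650 to 87350942, minus strand) and Gkn2 (ENSMUSG00000030049.4, 87373357 to 87379497, plus strand) have 6 exons and 184 codons each. Gkn3 (ENSMUSG00000030048.4, 87383256 to 87388935, minus strand) has 6 exons and 191 codons. Gkn3 and Gkn2 are neighbours on opposite strands, and Gkn2 stood 58.9 times above Gkn3 in pup 1 and 84.5 times in pup 2.

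The genes that flank the clusters lay far below Tff1, Tff2, Gkn1 and Gkn2, and between 0 TPM and slightly above the median of the tested genes, 12.8 TPM in pup 1 and 13.2 TPM in pup 2. Abcg1, a cholesterol transporter 7.3 kb from the trefoil cluster, measured 14.5 TPM in pup 1 and 16.9 TPM in pup 2. Tmprss3, a membrane serine protease on the far side, measured 0.31 TPM in pup 1 and 0.30 TPM in pup 2. Abcg1 lay above Tff3, and Tmprss3 below it. Beside the gastrokines, the anthrax toxin receptor gene Antxr1 measured 4.42 TPM in pup 1 and 5.13 TPM in pup 2. Bmp10, a growth factor known from the heart, had 0 counts in both libraries, where 3 counts would be 0.0596 TPM in pup 1 and 0.0620 TPM in pup 2.

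**Figure D2:**
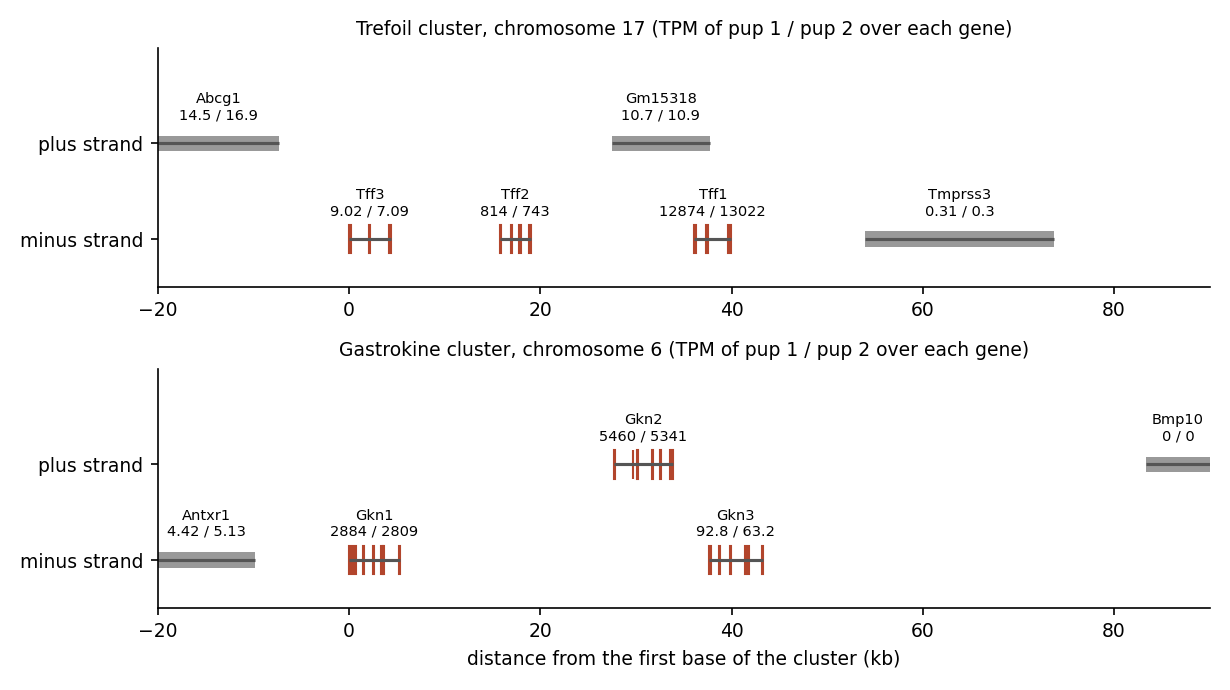
Position of the trefoil genes on chromosome 17 (top) and the gastrokine genes on chromosome 6 (bottom), as distance from the first base of each cluster in kb, with genes on the plus strand above those on the minus strand; red marks are exons, grey bars are other genes, and bars that reach a panel's edge go on beyond it. The numbers over each gene are TPM of pup 1 and of pup 2, and the flanking genes lie at 16.9 TPM or less.

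Tff1 shares 221 exonic bases with the antisense gene Gm15318 on the plus strand (31152752 to 31163054), and the labels do not say whether the reads keep their strand. Gm15318 was assigned 692 counts in pup 1 and 676 in pup 2, which was 0.342% of its sum with Tff1 in pup 1 and 0.343% in pup 2. Reads of the shared bases cannot be told apart without strand. The other 5 genes shared no reads with any other feature, since the deposited posterior SD of their counts was 0.

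The gastrokine promoters are shown because the 3 genes lie side by side and yet differ widely in level, and because the GATA and FOXA factors of the gastric epithelium were measured in the same libraries. Each sequence holds the 250 bases before the RefSeq start of the gene (build GRCm38.p6), 5′ to 3′ on the gene's own strand, and capitals mark matches to 3 motifs. Gkn1 is chr6:87350916-87351165 on the minus strand, Gkn2 is chr6:87373115-87373364 on the plus strand and Gkn3 is chr6:87388936-87389185 on the minus strand. The motifs searched on both strands were TATAAA (the TATA box), GATAA (the GATA factor core, which reads TTATC on the other strand) and TGTTTAC (a FOXA site), and no matches overlapped.
Gkn1: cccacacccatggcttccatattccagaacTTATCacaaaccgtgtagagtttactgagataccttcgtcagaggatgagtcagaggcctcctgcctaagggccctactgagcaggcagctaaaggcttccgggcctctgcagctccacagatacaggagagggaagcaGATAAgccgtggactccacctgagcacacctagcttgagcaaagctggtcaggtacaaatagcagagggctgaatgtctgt
Gkn2: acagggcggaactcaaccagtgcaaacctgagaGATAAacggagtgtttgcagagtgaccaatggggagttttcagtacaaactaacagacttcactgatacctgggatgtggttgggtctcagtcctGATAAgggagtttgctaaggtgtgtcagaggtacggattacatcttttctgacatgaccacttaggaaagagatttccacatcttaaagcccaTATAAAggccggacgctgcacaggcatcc
Gkn3: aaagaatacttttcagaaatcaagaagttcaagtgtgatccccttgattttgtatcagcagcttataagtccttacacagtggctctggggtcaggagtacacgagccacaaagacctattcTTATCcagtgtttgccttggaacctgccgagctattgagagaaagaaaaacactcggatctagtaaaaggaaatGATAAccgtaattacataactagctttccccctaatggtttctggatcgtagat

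Of these 3 windows only that of Gkn2, the highest of the gastrokines, held TATAAA, at bases -29 to -24 from the start. TATAAA was present in 12.4% of the 32851 RefSeq promoter windows of the same length. GATAA occurred 2 times in each of the 3 windows. At least 1 match was present in 22.6% of all windows, and the share with 2 matches was not computed. The matches lay at -220 to -216 and -81 to -77 in Gkn1, at -217 to -213 and -122 to -118 in Gkn2, and at -128 to -124 and -54 to -50 in Gkn3. TGTTTAC was in none of the 3 windows and in 3.17% of all windows. These matches describe letters only, and binding was not measured. The set of all windows was not matched for base composition. G and C made up 53.2% of the Gkn1 window, 47.2% of the Gkn2 window and 40.8% of the Gkn3 window.

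Between the littermates, Gkn3 was the member that differed most. A gene was counted as different where its TPM was at least 25% above that of the other pup in either direction and the credibility intervals of the 2 libraries lay apart. This held for 5.81% of the 13125 protein-coding genes with at least 1 TPM in both pups, and for 2.45% of them with pup 1 higher. Among the 6 members it held for Gkn3, at 92.8 TPM (95% credibility interval 88.2 to 94.9) in pup 1 against 63.2 TPM (59.6 to 65.3) in pup 2. The TPM ratio was 1.47, and the ratio of count shares was 1.48 with an exact binomial 95% interval of 1.40 to 1.57, from 2858 counts in pup 1 and 1872 in pup 2. Such intervals cover counting error only.

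The other members differed by less than 25% or had overlapping intervals. Tff3 was 1.27 times as high in pup 1 as in pup 2, but its credibility intervals overlapped, and the exact interval of its count share ratio ran from 0.997 to 1.66. Tff2 was 1.096 times as high in pup 1, with intervals of 791 to 815 TPM in pup 1 against 720 to 744 TPM in pup 2. Gkn1 and Gkn2 were 1.03 and 1.02 times as high in pup 1. The TPM ratio of Tff1 was 0.989, a log2 difference of -0.02 that became 0.03 with TMM scaling and 0.03 with DESeq2 size factors. By intervals alone, with no fold limit, 5 of the 6 members lay apart, as did 21.6% of the tested genes. Credibility intervals narrow as counts rise, so this share is not matched to members with many counts. Tff1 was among the 5, yet its ratio of count shares was 0.998, with an exact interval of 0.992 to 1.004. At a limit of 1.1-fold the count of members was 1, against 16.2% of the tested genes, and at 1.5-fold it was 0, against 1.49%.

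Seen against all tested genes, Gkn3 lay outside the range of most differences and the 3 high members near its centre. The log2 ratio of TPM + 1 had a median of -0.03 over the tested genes, and its middle 95% ran from -0.36 to 0.34. Gkn3 was at 0.55, Tff3 at 0.31, Tff2 at 0.13, Gkn1 at 0.04 and Gkn2 at 0.03. As a spread between littermates, the coefficient of variation was 0.805% for Tff1, 1.56% for Gkn2, 1.87% for Gkn1, 6.50% for Tff2, 16.9% for Tff3 and 26.8% for Gkn3. The spread thus widened from the high members to the low ones, apart from Tff3, which was lower than Gkn3 and varied less.

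**Figure D3:**
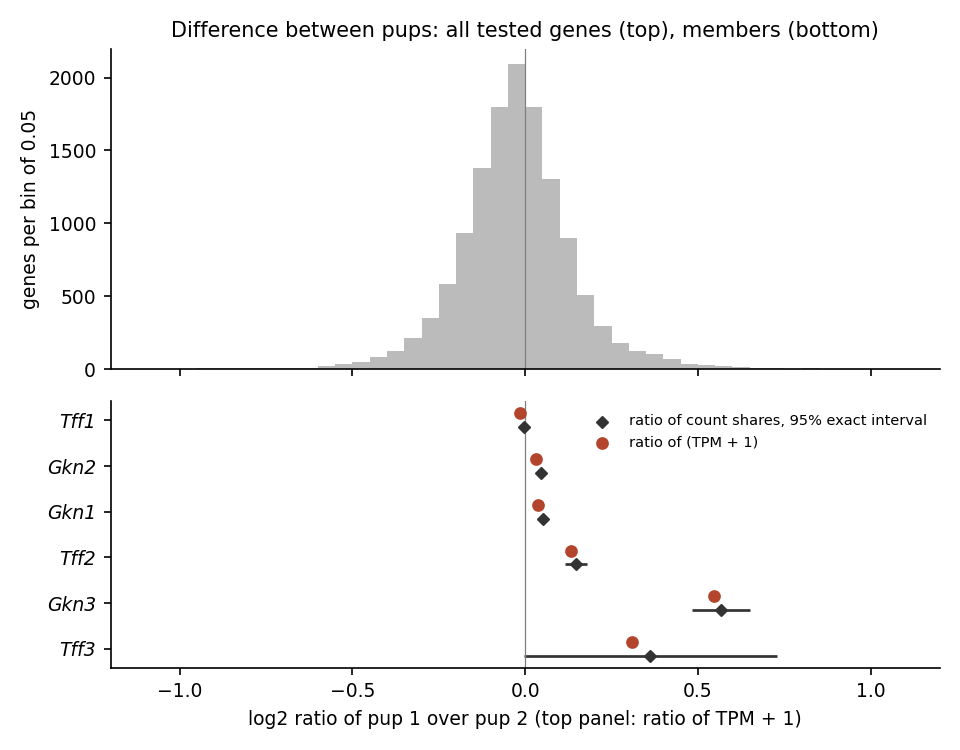
Top, histogram of the log2 ratio of pup 1 over pup 2 (TPM + 1) over 13125 protein-coding genes in bins of 0.05; bottom, the same ratio for each member (red circles) and its ratio of count shares (black diamonds) with the exact 95% interval as a line. Gkn3 at 0.55 lies in the right tail of the histogram, and the interval of Tff3 reaches 0.

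Transcripts of the mucins that accompany trefoil peptides in the adult were far lower in TPM than those of the peptides. Muc5ac, the gel-forming mucin of surface mucous cells, measured 2.51 TPM in pup 1 and 2.89 TPM in pup 2, so that Tff1 stood 5129 times above it in pup 1 and 4506 times in pup 2. Muc6, the mucin of mucous neck cells, measured 11.7 TPM in pup 1 and 9.68 TPM in pup 2. Tff2 stood 69.6 times above Muc6 in pup 1 and 76.7 times in pup 2, a much smaller excess than that of Tff1 over Muc5ac. Muc2, the mucin of intestinal goblet cells, measured 0.19 TPM in pup 1 and 0.34 TPM in pup 2, from 12 counts in pup 1 and 21 in pup 2. These are ratios per transcript length, and counts, which favour long transcripts, lay less far apart. Tff2 had 16336 counts in pup 1 and 14318 in pup 2, against 4005 and 3156 for Muc6. Tff1 had 201790 counts in pup 1 and 196119 in pup 2, against 1029 and 1160 for Muc5ac. Protein was not measured.

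Other genes ascribed to surface mucous cells ranged from Muc5ac, the lowest, to Psca, and all 8 of them were lower in pup 1 than in pup 2. Tff1, Gkn1 and Gkn2, ascribed to the same cells, differed by at most 1.03-fold in TPM. The prostate stem cell antigen gene Psca measured 1515 TPM in pup 1 and 1931 TPM in pup 2, the aspartic protease Ctse 514 TPM in pup 1 and 598 TPM in pup 2, and the membrane mucin Muc1 186 TPM in pup 1 and 223 TPM in pup 2. Of the 8 genes 3, Psca and the calpains Capn8 and Capn9, were counted as different, with pup 1 lower in each. The share of all tested genes counted as different, in either direction, was 5.81%. The calpains were low, with Capn8 at 8.70 TPM in pup 1 and 11.0 TPM in pup 2 and Capn9 at 11.0 TPM in pup 1 and 15.1 TPM in pup 2. The median log2 ratio of this list was -0.24, against -0.03 over all tested genes.

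Mucous neck cell genes lay the other way, with 4 of 5 higher in pup 1 and a median log2 ratio of 0.25. None was counted as different, against 5.81% of all tested genes. The gene lower in pup 1, the water channel gene Aqp5, measured 0.55 TPM in pup 1 and 1.14 TPM in pup 2. It had 33 counts in pup 1 and 66 in pup 2. Its intervals lay apart and it was 2.07-fold higher in pup 2, but at under 1 TPM in pup 1 it was not among the tested genes. Besides Muc6 they include the protease inhibitor Wfdc2, at 127 TPM in pup 1 and 106 TPM in pup 2, and Glipr1, at 13.9 TPM in pup 1 and 11.1 TPM in pup 2. Tff2, the trefoil peptide of these cells, was also higher in pup 1. In whole-stomach RNA, fewer cells of a type and less RNA per cell cannot be told apart.

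Tff3 was measured beside a partial set of intestinal goblet cell genes. Of 9 such genes 6 reached 1 TPM in both pups, and their summed level was 390 TPM in pup 1 and 381 TPM in pup 2. The secretory trafficking gene Rep15 led with 236 TPM in pup 1 and 268 TPM in pup 2, followed by the protease inhibitor Spink4 with 74.6 TPM in pup 1 and 64.8 TPM in pup 2. The goblet cell regulator Spdef measured 27.3 TPM in pup 1 and 24.6 TPM in pup 2. The goblet fate regulator Atoh1 stood at 0.1 TPM in pup 1 and 0.06 TPM in pup 2, and the goblet hormone Retnlb at 0 counts in pup 1 and 2 counts in pup 2. Muc2, Atoh1 and Retnlb were thus near 0 in both libraries.

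Clca1 and Fcgbp, both secreted into goblet cell mucus, were the 2 genes of that list counted as different. Both were higher in pup 1, as were 2.45% of all tested genes by the same rule. Clca1 measured 21.7 TPM in pup 1 and 7.36 TPM in pup 2, a 2.94-fold difference. Fcgbp, which binds Tff3 by a disulfide bond, measured 27.8 TPM in pup 1 and 14.7 TPM in pup 2, a 1.88-fold difference. Tff3 stood below Fcgbp in both pups, at 0.325 of its level in pup 1 and 0.481 in pup 2.

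Markers of tissues next to the stomach were present at low levels. Higher in pup 1 were 7 of 9 intestinal absorptive, 6 of 7 pancreatic and 2 of 5 airway genes, some of them, such as Cdx2, from few counts. Counted as different with pup 1 higher were 3 intestinal absorptive genes and 1 pancreatic gene, against 2.45% of all tested genes. Of 9 intestinal absorptive genes 5 reached 1 TPM in both pups, and they summed to 60.2 TPM in pup 1 and 43.8 TPM in pup 2. Alpi, an intestinal alkaline phosphatase, was 2.01-fold higher in pup 1, Lct, the lactase, 2.13-fold, and the apolipoprotein Apoa4 was also counted as different. The intestinal master regulator Cdx2 had 5 counts in pup 1 and 4 in pup 2. Fabp2, the highest of the list, measured 18.5 TPM in pup 1 and 15.6 TPM in pup 2, and Vil1, the brush border villin, 11.0 TPM in pup 1 and 9.54 TPM in pup 2.

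Of 7 pancreatic enzyme genes 6 reached 1 TPM in both pups, with sums of 68.1 TPM in pup 1 and 45.4 TPM in pup 2. The lipase Cel was 1.67-fold higher in pup 1 and was counted as different. The amylase Amy2a5 measured 20.8 TPM in pup 1 and 6.60 TPM in pup 2 with overlapping intervals, and its near-identical copies make it uncertain. Ctrb1 measured 20.6 TPM in pup 1 and 17.2 TPM in pup 2, and Cela2a 19.3 TPM in pup 1 and 15.6 TPM in pup 2. Airway secretory genes, 2 of 5 of them at 1 TPM or more in both pups, summed to 14.9 TPM in pup 1 and 13.6 TPM in pup 2. Scgb1a1 led with 10.8 TPM in pup 1 and 9.28 TPM in pup 2, followed by Scgb3a1 with 3.38 TPM in pup 1 and 3.11 TPM in pup 2. Scgb3a2 measured 0.70 TPM in pup 1 and 1.15 TPM in pup 2, and Sftpb had 0 counts in pup 1 and 1 in pup 2. The part of these tissues in the differences of Gkn3 and Tff3 was not tested.

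Markers of gastric glands were abundant, and 6 of 7 were lower in pup 1 than in pup 2. Pgc, the pepsinogen C gene, measured 1415 TPM in pup 1 and 1532 TPM in pup 2, Atp4b, a proton pump subunit, 690 TPM in pup 1 and 845 TPM in pup 2, and Atp4a, the other subunit, 519 TPM in pup 1 and 598 TPM in pup 2. Gast, which encodes the antral hormone gastrin, was the exception, at 72.7 TPM in pup 1 and 44.6 TPM in pup 2, a 1.63-fold difference that was counted. Gast and Gkn3 were both counted with pup 1 higher, by 1.63-fold and 1.47-fold, as were 2.45% of all tested genes. Gast is 1 gene of this list, and the other 6 went the other way. The share of antrum in each sample was not tested.

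**Figure D4:**
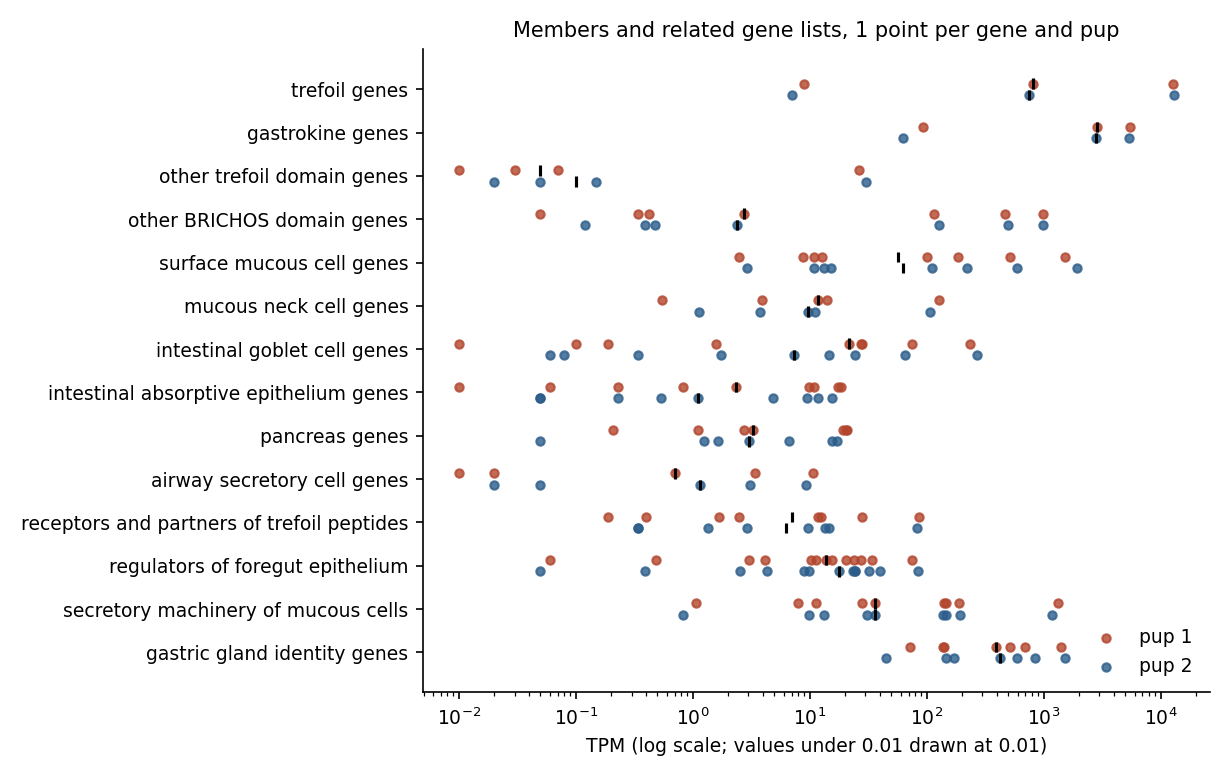
TPM (log axis, values under 0.01 drawn at 0.01) of the trefoil and gastrokine genes and of each related gene list, with 1 point per gene for pup 1 (red) and pup 2 (blue) and black ticks at the list medians. Tff1 lies beyond every listed gene in both pups, and the goblet and absorptive lists reach down to values near 0.

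Other genes with the domains of the 2 families all lay below Tff1, Gkn2 and Gkn1, but not all lay below the lower members. Among 4 other trefoil domain genes, the lysosomal glucosidase Gaa measured 26.5 TPM in pup 1 and 30.5 TPM in pup 2. The brush border enzyme Sis had 0 counts in pup 1 and 2 counts in pup 2, and the egg coat gene Zp1 had 3 counts in pup 1 and 5 in pup 2. Among 7 other BRICHOS genes, 4 reached 1 TPM in both pups. Itm2b measured 992 TPM in pup 1 and 991 TPM in pup 2, Itm2a 472 TPM in pup 1 and 496 TPM in pup 2, and Itm2c 117 TPM in pup 1 and 128 TPM in pup 2. Itm2b, which is expressed in many tissues, thus lay between Gkn1 and Tff2. Itm2a and Itm2c lay between Tff2 and Gkn3, and Gaa lay between Gkn3 and Tff3. Of these 11 genes only Gaa and the 4 BRICHOS genes at 1 TPM or more in both pups could be counted as different. None was, against 5.81% of all tested genes, so few genes say little here.

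Transcripts of genes for proteins named as receptors or binding partners of trefoil peptides were at moderate to low levels. Dmbt1, a mucin-like scavenger protein that binds Tff2, measured 86.7 TPM in pup 1 and 83.3 TPM in pup 2. The chemokine receptors Ackr3 and Cxcr4 measured 12.6 and 1.69 TPM in pup 1, against 13.4 and 1.34 TPM in pup 2. Lingo2, reported as a partner of Tff3, measured 0.40 TPM in pup 1 and 0.34 TPM in pup 2. Of the 8 genes in this list 6 reached 1 TPM in both pups. Fcgbp was the 1 counted as different, against 5.81% of all tested genes.

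Of 13 transcription factors known for the foregut mucous epithelium 11 reached 1 TPM in both pups. Klf4 measured 75.4 TPM in pup 1 and 85.2 TPM in pup 2, and Foxa3 33.8 TPM in pup 1 and 39.6 TPM in pup 2. Foxa1 was lower in pup 1, at 13.8 TPM against 24.6 TPM in pup 2, and Gata4 likewise, at 23.8 TPM in pup 1 against 31.9 TPM in pup 2. Sox2 was higher in pup 1, at 11.4 TPM against 9.00 TPM in pup 2. These 3 of the 11 were counted as different, against 5.81% of all tested genes. Any part of these factors in the levels of the members was not tested.

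Genes for secretion and disulfide bonding, processes that secreted, cysteine-rich proteins pass through, ranged widely in level. Agr2, a disulfide isomerase of mucous cells, measured 1317 TPM in pup 1 and 1169 TPM in pup 2, Xbp1, a regulator of secretory capacity, 189 TPM in pup 1 and 191 TPM in pup 2, and Pdia4 140 TPM in pup 1 and 147 TPM in pup 2. Of these 9 genes 8 reached 1 TPM in both pups, while Agr3 was at 1.06 TPM in pup 1 and 0.83 TPM in pup 2. The secretory cell regulator Bhlha15 was the 1 counted as different, against 5.81% of all tested genes. Bhlha15 measured 7.93 TPM in pup 1 and 9.95 TPM in pup 2. The median of the list was 36.0 TPM in pup 1 and 36.0 TPM in pup 2.

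The genes closest in level to each member were found by the distance of log2(TPM + 1) over the 2 libraries, which finds like levels and says nothing of shared function, and which uses the deposited transcript lengths. Tff1 lay nearest to the squamous epithelium genes Sprr2a2 (12457 TPM in pup 1 and 11681 TPM in pup 2, distance 0.164) and Krtdap (10904 TPM in pup 1 and 11163 TPM in pup 2, distance 0.327). Gkn2 lay nearest to the cytoskeletal genes Tmsb4x (distance 0.152) and Actb (0.295), and Gkn1 to the epidermal gene Lce3f (0.0362) and the ferritin gene Fth1 (0.0910). Tff2 lay nearest to the ATP synthase gene Atp5h (0.0555) and the ribosomal protein gene Rpl36al (0.0561). Tff1 and Gkn2 thus matched genes of squamous epithelium and the cytoskeleton in level.

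Gkn3 lay nearest to the cell cycle gene Ube2c, at 89.3 TPM in pup 1 and 63.6 TPM in pup 2 (distance 0.0556), and to Zc3h15, at 88.6 TPM in pup 1 and 70.1 TPM in pup 2 (distance 0.160). Tff3 lay nearest to the mitotic kinase gene Nek2 (0.0550) and the neuropeptide gene Nmu (0.0570). Both neighbours of Gkn3 were also higher in pup 1, which the distance measure favours for a gene that differs between the libraries.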

How the data were processed

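Whole-stomach total RNA of 2 pups was analysed, 1 library each. Per the labels, RNA was extracted with a mirVana kit, 10 ng of RNA above 200 nt entered each library, and spike-ins were used. A SMARTer Ultra Low manual is linked. The deposited gene and transcript tables use build mm10 and GENCODE M4, per the text files deposited beside the tables. Aligner, quantifier and strandedness: not given in the sources used here.

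Deposited expected counts are estimates of reads per gene without scaling for depth. The deposited TPM values, with a posterior mean and a 95% credibility interval, are scaled over all features. The deposited FPKM values were used as an alternative. The isoform percent in the deposited transcript tables is 100 for each member, which has 1 transcript in GENCODE M4. Symbols, positions and gene types came from GENCODE M21, matched on IDs without version, which named 42462 of 43346 Ensembl IDs. Promoters came from RefSeq (GRCm38.p6) and matched 3 of the 6 members.

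Level, order and the ratio of pup 1 over pup 2 were computed with Python 3.11.15, pandas 2.3.3 and scipy 1.17.1. The log2 ratio used a pseudocount of 1 TPM, so it understates differences of low genes. Ratios of count shares have exact binomial 95% intervals, which cover counting error only, since PCR copies are not independent molecules. With 1 group no p-value was computed. The 84 symbols of the 12 lists were all found. Named genes were the 6 members, the 3 highest of each list, list genes that differed 1.5-fold or more at a mean count of 100 or more, list genes at 0 counts in both pups (there were 0), flanking and enclosed genes, and the 2 genes nearest in level to each member. Other named genes (Capn8, Capn9, Aqp5, Sox2, Bhlha15, Agr3, Cxcr4, Lingo2, Muc2, Muc5ac, Atoh1, Retnlb, Cdx2 and Sftpb) were chosen after their values were seen or as known partners and defining markers. Alternatives used other filters, limits, scalings and transcript lengths, with TMM from edgeR 4.0.16 and size factors from DESeq2 1.42.0. The members and lists were chosen with earlier results of these data known.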

Additional observations from a re-analysis of the deposited data

How the results depend on the processing

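The order of the 6 levels was the same under every alternative run, and 17 of 22 settings left the summary values within the spread between pups, or counts within 1.5 times. Of the 17, those that left out 1 pup could not have moved the combined share beyond that spread. The combined share of 2.21% of TPM became 2.61% over nuclear protein-coding genes alone and 2.17% with the posterior mean. It became 0.975% as a share of expected counts, which are not scaled for transcript length and favour long transcripts. The number of members counted as different, 1, became 0 at a 1.5-fold limit and 5 with intervals alone. The log2 ratio kept its sign for 5 of 6 members under every scaling and unit run, from 0.52 to 0.60 for Gkn3, 0.21 to 0.39 for Tff3, 0.13 to 0.18 for Tff2, 0.04 to 0.08 for Gkn1 and 0.03 to 0.08 for Gkn2. That of Tff1 was -0.02 by TPM, 0.03 with TMM scaling and 0.03 with DESeq2 size factors. With the 703 bases of 1 GENCODE M21 transcript of Tff1 and its counts unchanged, an alternative chosen after seeing the data, its level was 8125 TPM. That was still above Gkn2 at 5314 TPM and Gkn1 at 2772 TPM by their own M21 lengths. Its rank among protein-coding genes, with the other genes at their deposited levels, was 6 in place of 3 in either pup. Among settings of single genes and lists, 32 moved a value and 110 did not. Levels and list medians were judged by the spread between pups and log2 ratios by counting error. The rank of Tff1, its ratio over Tff3 and isoform percents were judged by any change. Many of the 110 could not have moved: those that left out 1 pup, isoform percents of genes with 1 transcript, and log2 ratios without a filter. The 110 are therefore no measure of robustness. Depth limits Tff3, whose 147 counts in pup 1 and 111 in pup 2 could not show a 1.27-fold difference beyond counting error. With 2 littermates the SD is itself uncertain.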
